A study of Mus musculus with 24 samples.

Results

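Zinc and iron share several of the proteins that move and hold them, and 9 genes of this machinery were followed here in mouse embryonic fibroblasts (MEFs). They were the metal importer gene Slc39a14, the iron uptake genes Tfrc, Steap4 and Slc11a2, the metallothionein genes Mt1 and Mt2, the ferritin genes Fth1 and Ftl1, and the iron exporter gene Slc40a1. The 9 symbols were given as a list, matched to the gene identifiers of the count tables, and read in all 24 libraries. All 9 were found among the 55471 genes of the tables, and all 9 were among the 17522 genes with enough counts to be tested. A further 72 zinc, iron and heme genes, grouped by function, served as a wider list, and 56 of them could be tested (none of the other 16 exceeded 13 counts in a library). The list was drawn up with earlier results of these libraries in view. Steap4 had already been named for its induction by IL-1β in wild-type (WT) cells, and Slc39a14 for its unequal IL-1β responses in 2 of the genotypes. Those values are therefore given as description only. Steap4 was not tested in comparisons with WT libraries, nor Slc39a14 in comparisons with LKB1 KO or clone A1 libraries.

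The cells were 3T3 MEFs, a fibroblast line that grows without limit in culture, of 4 genotypes: WT, LKB1 KO, and LKB1/CRTC2 KO clones A1 and A2. LKB1 is a kinase encoded by Stk11, and CRTC2 is a coactivator of the transcription factor CREB. Each genotype was left untreated or stimulated for 6 hours with IL-1β, an inflammatory cytokine, which gave 8 groups of 3 libraries. The question was how loss of LKB1 alters gene expression at rest and under IL-1β, and which part of this needs CRTC2. Both double knockouts were clones made by CRISPR editing of Crtc2 in LKB1 KO cells, so they share the LKB1 loss of the LKB1 KO cells. An effect of CRTC2 loss and a property of 1 clone cannot be told apart within either clone, and each of the WT and LKB1 KO genotypes is likewise 1 line. The labels number the replicates 1 to 3 but do not say whether they came from separate cultures, so the p-values measure only the spread between these libraries, which may be technical.

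Cells take up iron as transferrin bound to the transferrin receptor (Tfrc), reduce it with STEAP metalloreductases (Steap4) and pass it into the cytosol through the transporter DMT1 (Slc11a2) or through ZIP14 (Slc39a14), which also carries zinc. Surplus iron is stored in ferritin, a shell of heavy (Fth1) and light (Ftl1) chains, and leaves the cell through ferroportin (Slc40a1), while metallothioneins (Mt1, Mt2) bind zinc and are classic targets of the zinc sensor MTF1 through metal response elements. Iron itself is read by iron regulatory proteins that bind a hairpin, the iron responsive element, in the untranslated regions of some of these messages, and inflammation is known to alter the handling of both metals.

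The control sequences through which these genes are known to be read were taken first. RefSeq promoter windows of 250 bases before the annotated start (GRCm38.p6) were found for 6 of the 9 genes and not for Slc39a14, Slc40a1 and Slc11a2. The windows of Mt2, Mt1 and Steap4 are shown because Mt2 and Steap4 had the largest changes with IL-1β among the genes with a window and Mt1 is the neighbour of Mt2. Capitals in the Mt2 window (chr8:94172368-94172617, plus strand) mark the 3 matches to the metal response element, TGCACNC or TGCGCNC read on either strand, and those in the Mt1 window (chr8:94178839-94179088, plus strand) the single match. Capitals in the Steap4 window (chr5:7960222-7960471, plus strand) mark matches to the NF-κB motif, 1 of which is read on both strands at the same 10 bases and 1 on the minus strand only.

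Mt2: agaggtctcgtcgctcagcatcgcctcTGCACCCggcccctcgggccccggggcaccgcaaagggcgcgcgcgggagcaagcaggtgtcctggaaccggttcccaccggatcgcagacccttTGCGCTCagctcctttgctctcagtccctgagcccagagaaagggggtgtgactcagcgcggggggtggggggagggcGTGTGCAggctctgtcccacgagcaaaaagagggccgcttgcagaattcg

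Mt1: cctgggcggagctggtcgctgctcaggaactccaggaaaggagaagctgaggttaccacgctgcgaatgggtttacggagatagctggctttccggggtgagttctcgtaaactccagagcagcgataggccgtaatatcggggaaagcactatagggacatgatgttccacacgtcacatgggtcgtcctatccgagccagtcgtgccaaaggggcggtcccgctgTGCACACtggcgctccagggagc

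Steap4: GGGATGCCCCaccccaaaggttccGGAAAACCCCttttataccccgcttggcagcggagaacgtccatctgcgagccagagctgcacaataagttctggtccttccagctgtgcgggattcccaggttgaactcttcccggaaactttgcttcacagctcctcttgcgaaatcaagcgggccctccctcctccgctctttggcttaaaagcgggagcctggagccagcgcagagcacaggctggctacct

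A metal response element was present in 21.4% of 32851 RefSeq promoter windows of this length, and 1.26% held 3 or more. The NF-κB motif was present in 7.25% of the windows. Of the other members, the Ftl1 window held 1 NF-κB match, read on both strands, and the first of 2 Tfrc windows held a pair of overlapping metal response elements. No Fth1 window held either motif. The core of the CREB site (TGACG) was found in the Mt1 window and in the second Tfrc window, against 17.8% of all windows, and the full CREB site (TGACGTCA) in none of the members' windows. These matches describe letters in a window and not binding. Bases outside the windows were not searched, so the counts do not give the number of elements that a gene such as Mt1 or Mt2 has.

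Transcripts of GENCODE M21 (GRCm38) were searched for the loop of the iron responsive element, CAGTGN with A, C or T at the last place, on a stem of 5 pairs that a single C precedes. The hairpin was found in 4 of the 9 genes and in 1.01% of 21877 protein-coding genes. The 30 bases around each loop are shown because these sites join 4 members that moved differently, and capitals mark the loop. The sites of Fth1, Ftl1 and Slc40a1 lie in the 5′ untranslated region, and the 4 sites of Tfrc in the 3′ untranslated region.

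Fth1 (chr19:9982732-9982761, plus strand): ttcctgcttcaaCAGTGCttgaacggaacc

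Ftl1 (chr7:45459778-45459807, minus strand): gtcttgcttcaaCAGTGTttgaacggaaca

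Slc40a1 (chr1:45925464-45925493, minus strand): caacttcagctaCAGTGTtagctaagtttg

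Tfrc site 1 (chr16:32631219-32631248, plus strand): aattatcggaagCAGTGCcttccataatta

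Tfrc site 2 (chr16:32631598-32631627, plus strand): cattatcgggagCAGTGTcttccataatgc

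Tfrc site 3 (chr16:32631663-32631692, plus strand): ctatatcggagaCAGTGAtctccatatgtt

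Tfrc site 4 (chr16:32631710-32631739, plus strand): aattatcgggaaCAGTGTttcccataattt

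The sites of the 2 ferritin genes were the same at 26 of 30 bases, whereas neither shared more than 13 bases with the site of Slc40a1 or with any site of Tfrc. No hairpin was found by this rule in Slc11a2, Slc39a14, Steap4, Mt1 or Mt2. The rule admits only the loop and stem given above, so it would miss a hairpin of another form in any of these genes.

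The libraries held between 38842901 and 48594394 counts on genes. Stk11 was at 83.4 to 87.9 CPM (counts relative to the library total after scaling by edgeR's TMM factors, as for all levels here) in the WT libraries and at 16.3 to 23.2 CPM in those of the other genotypes, so the transcript was lower but still present. Crtc2 was at 56.5 to 68.5 CPM in WT libraries, 79.1 to 84.6 CPM in LKB1 KO libraries and 41.1 to 56.4 CPM in those of the clones. Fibroblast markers summed to 3428 to 7582 CPM, with Thy1 alone of 8 at or under 3 counts in every library. The 4 erythroid markers, whose cells handle much iron, were at or under 3 counts everywhere, and the leukocyte markers summed to 2.49 to 8.96 CPM with Ptprc, Adgre1 and Itgam at or under 3 counts. These sums moved with the groups. The fibroblast sum was 6173 to 7582 CPM untreated and 5111 to 6195 CPM under IL-1β in WT, and 4595 to 5363 CPM and 3428 to 4491 CPM in LKB1 KO. It was 6565 to 7214 CPM and 5339 to 6039.7 CPM in clone A1, and 4734 to 6761 CPM and 3917 to 5244 CPM in clone A2. The leukocyte sum ranged from 2.49 to 5.13 CPM in WT, from 4.32 to 6.21 CPM in LKB1 KO, from 5.77 to 8.36 CPM in clone A1 and from 6.67 to 8.96 CPM in clone A2. The part of these shifts in the results was not tested. Fewer cells of a type and less RNA per cell cannot be told apart in such bulk libraries.

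Genes were called at a false discovery rate (FDR) under 0.05 in edgeR's quasi-likelihood test, adjusted over all 17522 genes, and differences are given on the log2 scale as the estimate ± its standard error (SE). Between untreated LKB1 KO and WT cells, 55.9% of all genes were called, and 5 of the 7 members open to the test were, 4 higher and 1 lower. Under IL-1β the same comparison called 57.4% of all genes and 5 of 7 members, again 4 higher and 1 lower. Of all genes, 30.1% were higher and 25.8% lower untreated, and 30.2% and 27.1% under IL-1β. Among the 7 members open to the test, the libraries of the 2 genotypes did not overlap for the same 5 in both conditions, against 64.8% and 62.6% of all genes. The shares of members are close to the background, and the medians of the members, 0.71 and 0.67, compare with 0.04 and 0.03 over all genes.

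The IL-1β comparisons had a far lower background. IL-1β changed 2.26% of all genes in WT cells and 2 of 8 members, and 4.74% of all genes in LKB1 KO cells and 4 of 8 members. In clone A1 it changed 1.99% of all genes and 3 of 8 members, and in clone A2 5.68% of all genes and 6 of 9 members. Each of these called members rose, against 1.53%, 2.65%, 1.20% and 2.81% of all genes that rose and 0.731%, 2.09%, 0.788% and 2.86% that fell in the 4 genotypes in that order. Among the members open to the test, stimulated and untreated libraries did not overlap for 5 in WT, LKB1 KO and clone A2 and for 6 in clone A1, against 18.5%, 20.3%, 15.4% and 17.2% of all genes in these genotypes. When the replicate number entered the fit as a block, 9.30% of all genes and 5 of 8 members were called in WT cells, 4 higher and 1 lower. In LKB1 KO 14.8% and 5 of 8 were called, all higher, in clone A1 9.61% and 5 of 8, all higher, and in clone A2 17.9% and 7 of 9, 6 higher and 1 lower. A value called or lost in that fit is marked below as one with the block. Without the block, the counts over all genes moved when single libraries were left out. They fell from 396 to 203 without untreated WT replicate 2, from 831 to 544 without untreated LKB1 KO replicate 2, and from 348 to between 197 and 227 in clone A1 when each of its libraries except untreated replicate 1 was left out in turn, and rose from 995 to 1890 without untreated clone A2 replicate 1.

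Each clone was also set against LKB1 KO cells. Untreated, 35.3% of all genes and 3 of 8 members were called in clone A1 (48.1% and 5 of 8 with the block, 1 of them higher), and 32.3% and 4 of 8 in clone A2 (45.9% and 6 of 8 with the block, 1 of them higher). Without the block all of these called members were lower in the clone, against 16.4% of all genes lower and 18.9% higher in clone A1 and 15.1% lower and 17.1% higher in clone A2. Under IL-1β, 36.7% of all genes and 5 of 8 members were called in clone A1, 1 higher and 4 lower (49.1% and 7 of 8 with the block, 2 higher and 5 lower), and 32.8% and 3 of 8 in clone A2, all lower (46.6% and 6 of 8 with the block, 1 of them higher). The background was 17.3% lower and 19.4% higher in clone A1 and 15.8% lower and 17.1% higher in clone A2. Among the 8 members open to the test, libraries of clone A1 and LKB1 KO did not overlap for 6 untreated and 5 under IL-1β, against 49.4% and 44.9% of all genes, and those of clone A2 and LKB1 KO for 5 and 3, against 40.7% and 39.4%. Between the clones, 32.5% of all genes and 4 of 8 members were called untreated, and 30.7% and 4 of 8 under IL-1β, 3 higher and 1 lower in clone A2 both times, against 15.8% of all genes higher and 16.7% lower untreated and 15.1% higher and 15.6% lower under IL-1β. With the block these became 46.3% and 5 of 8 untreated, 3 higher and 2 lower, and 44.4% and 6 of 8 under IL-1β, 3 higher and 3 lower. The libraries of the clones did not overlap for 4 of the 8 members open to the test in each condition, against 39.9% and 38.7% of all genes.

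**Figure D1:**
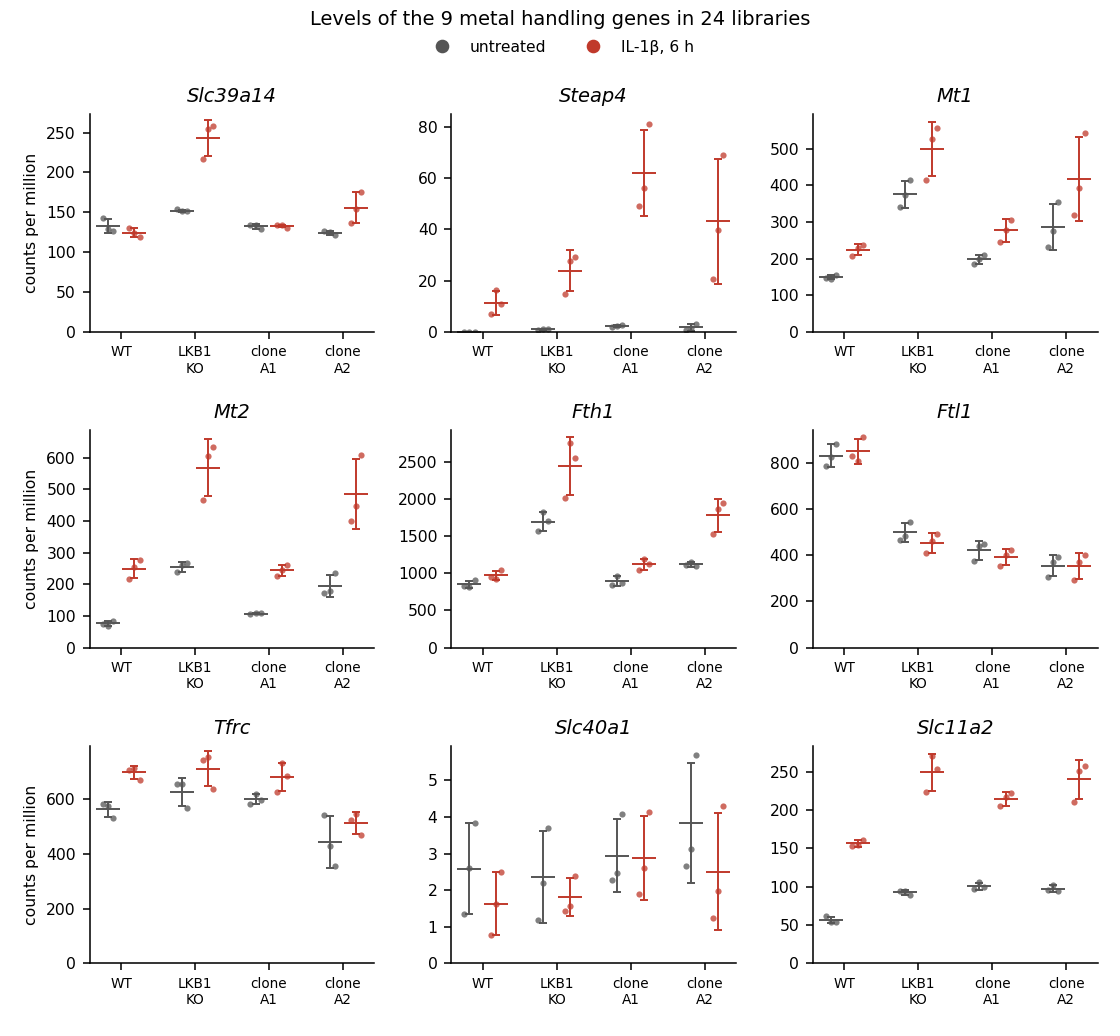
Levels of the 9 genes in CPM (linear axes from 0) in the 8 groups, with untreated libraries in grey and IL-1β libraries in red. Each point is 1 library, and the bar and whiskers are the mean and SD of 3 libraries. Slc11a2 and Mt2 stand higher with IL-1β in every genotype without overlap of the libraries, Ftl1 is highest in WT cells, and Slc39a14 is above 200 CPM in the LKB1 KO libraries under IL-1β only.

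Per kilobase of the main transcript, the ferritin and metallothionein messages were the most abundant over all libraries, and Slc40a1 and Steap4 the least, Steap4 being the lower of these untreated and Slc40a1 under IL-1β. Over the group means, Fth1 ranged from 569.8 CPM per kilobase in untreated WT cells to 1634 in LKB1 KO cells under IL-1β, and Mt2 from 149 to 1112 in the same groups. Tfrc lay between 90.2 and 145, Slc11a2 between 18.7 and 82.4, and Slc39a14 between 25.2 and 49.4 CPM per kilobase. Slc40a1 stayed between 0.485 and 1.14 CPM per kilobase, so its values rest on few reads. LKB1 KO cells under IL-1β had the highest mean of 6 of the 9 genes (Slc39a14, Mt1, Mt2, Fth1, Tfrc and Slc11a2), and untreated WT cells the lowest mean of 5 (Steap4, Mt1, Mt2, Fth1 and Slc11a2).

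Slc39a14 (ENSMUSG00000022094, chr14:70303469-70351425, minus strand) encodes ZIP14, an importer of zinc and of iron that is not bound to transferrin. In the order of replicates 1, 2 and 3, which is kept below, its level was 142, 129.5 and 126 CPM in untreated WT cells and 129.9, 124 and 119 CPM under IL-1β. The WT groups overlapped. LKB1 KO libraries were at 154, 151 and 151 CPM untreated and 217, 254 and 259 CPM under IL-1β, and the 3 stimulated libraries were the highest of all 24. Clone A1 was at 134, 134 and 129 CPM untreated and 134, 134 and 131 CPM under IL-1β, with overlapping ranges. Clone A2 was at 126, 126 and 121 CPM untreated and 137, 154 and 175 CPM under IL-1β, without overlap.

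The change of Slc39a14 with IL-1β was −0.095 ± 0.075 (edgeR FDR = 0.73) in WT cells, which did not pass the test, and 0.32 ± 0.075 (edgeR FDR = 0.010) in clone A2, which did. The call in clone A2 was lost when only its 2 groups were fitted (edgeR FDR = 0.16). As a description without a test, the change was 0.68 ± 0.075 in LKB1 KO cells and 0.0052 ± 0.075 in clone A1. In the stimulated cells the log2 level of LKB1 KO exceeded that of WT by 0.97 ± 0.075 and stood above clone A1 and clone A2, whose differences from LKB1 KO were −0.87 ± 0.075 and −0.64 ± 0.075. In untreated cells the same 3 differences were 0.19, −0.20 and −0.29. In the order of the 8 groups, LKB1 KO under IL-1β was followed by clone A2 under IL-1β and untreated LKB1 KO, which overlapped each other, and the lowest places were held by untreated clone A2 and stimulated WT cells, which also overlapped.

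Mt1 (ENSMUSG00000031765, chr8:94179082-94180327, plus strand) and Mt2 (ENSMUSG00000031762, chr8:94172664-94173568, plus strand) are neighbours on chromosome 8 and encode metallothioneins, small cysteine-rich proteins that buffer zinc. Mt1 was at 146, 145 and 156 CPM in untreated WT and 340.2, 373 and 413 CPM in untreated LKB1 KO cells. Mt2 was at 75.6, 69.6 and 83.4 CPM in untreated WT and 237, 261 and 269 CPM in untreated LKB1 KO cells. For both genes every LKB1 KO library lay above every WT library.

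The untreated difference of LKB1 KO from WT was 1.34 ± 0.16 (edgeR FDR = 4.1e-07) for Mt1 and 1.75 ± 0.15 (edgeR FDR = 1.5e-09) for Mt2. Under IL-1β it was 1.15 ± 0.16 (edgeR FDR = 2.8e-06) for Mt1 and 1.19 ± 0.14 (edgeR FDR = 3.6e-07) for Mt2. Both metallothionein genes were thus higher in LKB1 KO cells with and without the cytokine.

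IL-1β brought Mt2 to 217, 255 and 276 CPM in WT, 466, 604 and 635 CPM in LKB1 KO, 227, 244 and 261 CPM in clone A1 and 400.2, 446 and 608 CPM in clone A2. All stimulated libraries of a genotype lay above its untreated libraries. The log2 fold change of Mt2 with IL-1β was 1.71 ± 0.15 (edgeR FDR = 1.8e-07) in WT, 1.15 ± 0.14 (edgeR FDR = 1.9e-05) in LKB1 KO, 1.18 ± 0.14 (edgeR FDR = 3.1e-05) in clone A1 and 1.31 ± 0.14 (edgeR FDR = 3.1e-06) in clone A2. The response of LKB1 KO cells differed from that of WT cells by −0.56 ± 0.20 (edgeR FDR = 0.60), which did not pass the test but was called with the block (edgeR FDR = 0.013) and without a filter on low counts (edgeR FDR = 0.00087).

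Mt1 changed by less. Under IL-1β it was at 207, 229 and 237 CPM in WT, 414, 525 and 556 CPM in LKB1 KO, 245, 279 and 306 CPM in clone A1 and 319, 391 and 544 CPM in clone A2. In WT, LKB1 KO and clone A1 the stimulated libraries lay above the untreated ones, whereas in clone A2 the ranges overlapped. The log2 fold change was 0.55 ± 0.16 (edgeR FDR = 0.048) in clone A2, which passed. It was 0.59 ± 0.16 (edgeR FDR = 0.058) in WT, 0.41 ± 0.16 (edgeR FDR = 0.20) in LKB1 KO and 0.49 ± 0.16 (edgeR FDR = 0.16) in clone A1, none of which passed. All 3 were called with the block (edgeR FDR = 8.2e-05, 0.0020 and 0.00074), without a filter on low counts (3.4e-10, 1.1e-05 and 3.7e-08) and with only the 2 groups fitted (0.0026, 0.045 and 0.010). Upper quartile scaling called those in WT (0.013) and clone A1 (0.039), and DESeq2 (0.018) and the filter of 10 counts in every library (0.025) the one in WT. The call in clone A2 was lost without its untreated replicate 1 (edgeR FDR = 0.088), without its untreated replicate 2 (0.12), without its stimulated replicate 3 (0.16), with unstranded counts (0.063) and with only its 2 groups fitted (0.30).

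The ratio of Mt2 to Mt1 within a library, each per kilobase, was 0.549 ± 0.0302 (SD, n = 3) in untreated and 1.19 ± 0.0635 in stimulated WT cells. The untreated and stimulated ratios were 0.732 ± 0.0294 and 1.22 ± 0.0138 in LKB1 KO, 0.587 ± 0.0314 and 0.951 ± 0.0411 in clone A1, and 0.738 ± 0.0550 and 1.26 ± 0.0796 in clone A2. In each genotype the 3 stimulated ratios lay above the 3 untreated ratios.

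In each clone the means of both metallothioneins lay between those of WT and LKB1 KO at rest. For Mt1 the clone A2 libraries overlapped those of LKB1 KO. Mt1 was at 185, 199 and 209 CPM in untreated clone A1 and 232, 274 and 354 CPM in untreated clone A2, and Mt2 at 107, 108 and 108 and 173, 178 and 235 CPM. Against LKB1 KO, clone A1 was lower, at log2 differences of −0.93 ± 0.16 (edgeR FDR = 0.00011) for Mt1 and −1.25 ± 0.14 (edgeR FDR = 9.9e-07) for Mt2 untreated, and of −0.85 ± 0.16 (edgeR FDR = 0.00027) and −1.22 ± 0.14 (edgeR FDR = 1.2e-06) under IL-1β. All 4 of these differences passed.

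Clone A2 was nearer to LKB1 KO. Its untreated difference was −0.39 ± 0.14 (edgeR FDR = 0.042) for Mt2, which passed, and −0.39 ± 0.16 (edgeR FDR = 0.067) for Mt1, which did not pass but was called with the block (edgeR FDR = 0.00052) and without clone A2 untreated replicate 3 (edgeR FDR = 0.012). The Mt2 call was lost without clone A2 untreated replicate 1 (edgeR FDR = 0.14) or 2 (0.15), without LKB1 KO untreated replicate 2 (0.10) or 3 (0.11), and with unstranded counts (0.22). Under IL-1β neither gene passed, with differences of −0.25 ± 0.16 (edgeR FDR = 0.24) for Mt1 and −0.23 ± 0.14 (edgeR FDR = 0.24) for Mt2. Both were called with the block (edgeR FDR = 0.013 and 0.025) and without clone A2 stimulated replicate 3 (0.0088 and 0.014), which held the highest metallothionein levels of its group.

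Set directly against clone A1, clone A2 was higher for Mt1 by a log2 difference of 0.54 ± 0.16 (edgeR FDR = 0.013) untreated and 0.59 ± 0.16 (edgeR FDR = 0.0069) under IL-1β, and for Mt2 by 0.86 ± 0.14 (edgeR FDR = 8.7e-05) and 0.99 ± 0.14 (edgeR FDR = 1.9e-05). The untreated Mt1 call was lost without clone A1 replicate 1 (edgeR FDR = 0.055) or clone A2 replicate 3 (0.078), and the stimulated one without clone A2 replicate 3 (0.054).

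**Figure D2:**
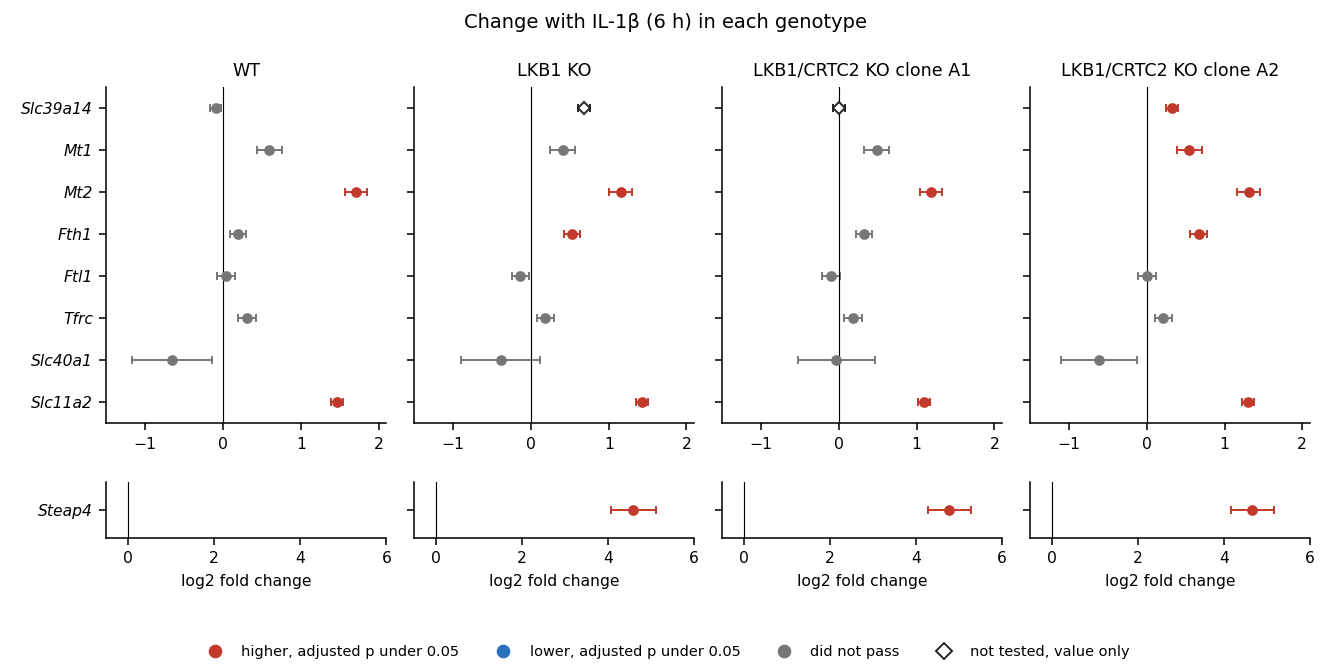
Log2 fold change with IL-1β in each of the 4 genotypes (horizontal axis), with 1 line for each gene and Steap4 on its own scale below. Points are estimates and whiskers 1 SE, red points passed as higher, grey points did not pass, and open diamonds were not tested. Mt2 and Slc11a2 passed in all 4 genotypes, no member passed as lower, and Steap4 in WT cells is not drawn because untreated WT libraries held 2 of its counts in all.

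Tfrc (ENSMUSG00000022797, chr16:32608920-32632794, plus strand) encodes the transferrin receptor. Its level was 581, 575 and 531 CPM in untreated WT, 654, 653 and 567 CPM in LKB1 KO, 581, 618 and 596 CPM in clone A1 and 542, 428 and 354 CPM in clone A2. Under IL-1β it was 706, 712 and 669.7 CPM in WT, 740.1, 751 and 636 CPM in LKB1 KO, 626, 731 and 681 CPM in clone A1 and 521, 546 and 466 CPM in clone A2. Neighbouring groups overlapped throughout the order of the 8 groups, with the clone A2 groups at its low end.

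LKB1 KO did not differ from WT in Tfrc beyond the spread, at a log2 difference of 0.15 ± 0.11 (edgeR FDR = 0.26) untreated, with an interval (± 1.96 SE) from −0.066 to 0.37, and 0.026 ± 0.11 (edgeR FDR = 0.86) under IL-1β, with an interval from −0.19 to 0.24. Nor did clone A1 pass against LKB1 KO (−0.062 ± 0.11 (edgeR FDR = 0.71) untreated and −0.062 ± 0.11 (edgeR FDR = 0.72) under IL-1β). Clone A2 was lower than LKB1 KO, at log2 differences of −0.50 ± 0.11 (edgeR FDR = 0.0014) untreated and −0.47 ± 0.11 (edgeR FDR = 0.0023) under IL-1β, and lower than clone A1, at −0.44 ± 0.11 (edgeR FDR = 0.0041) and −0.41 ± 0.11 (edgeR FDR = 0.0072). With only the 2 groups fitted, the untreated calls were lost (edgeR FDR = 0.055 against LKB1 KO and 0.083 against clone A1), and the latter also without clone A2 untreated replicate 3 (0.054), the lowest of the 24 libraries.

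With IL-1β, Tfrc changed by 0.31 ± 0.11 (edgeR FDR = 0.21) in WT, 0.18 ± 0.11 (edgeR FDR = 0.50) in LKB1 KO, 0.18 ± 0.11 (edgeR FDR = 0.63) in clone A1 and 0.21 ± 0.11 (edgeR FDR = 0.34) in clone A2, none of which passed. The value in WT cells was called with the block (edgeR FDR = 0.021), where all 3 same-numbered pairs were higher under IL-1β. In clone A2 it was called without its untreated replicate 1 (edgeR FDR = 0.015).

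Steap4 (ENSMUSG00000012428, chr5:7960457-7982213, plus strand) encodes a metalloreductase that reduces iron and copper, and was the member with the largest range. Untreated WT libraries held 0, 2 and 0 counts, a summed count of 2 that is at or under the 3 counts taken as the limit of detection in each library. Untreated LKB1 KO libraries were at 0.679, 1.11 and 1.19 CPM, clone A1 at 1.76, 2.26 and 2.76 CPM and clone A2 at 0.544, 1.53 and 3.06 CPM. All 9 untreated libraries of these genotypes lay above the 3 WT libraries, and the ratio of summed counts to WT, scaled for depth, was 62.7 in LKB1 KO with a 95% counting interval from 17.0 to 523, 143 in clone A1, with an interval from 39.3 to 1190, and 106 in clone A2, with an interval from 29.1 to 882. These intervals cover counting error only. Because Steap4 had been named for its values in WT libraries, they serve as description and not as tests.

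Under IL-1β Steap4 stood at 6.81, 16.2 and 10.96 CPM in WT, 14.7, 27.5 and 29.3 CPM in LKB1 KO, 49.1, 56.0 and 80.9 CPM in clone A1 and 20.6, 39.7 and 68.9 CPM in clone A2. No stimulated library overlapped an untreated library of any genotype. The rise in WT cells, for which Steap4 had been named, is given as description only. Scaled for depth, the summed counts of stimulated WT cells were 722 times those of untreated WT cells (95% counting interval 200 to 5971, counting error only). The log2 fold change with IL-1β was 4.59 ± 0.52 (edgeR FDR = 6.1e-06) in LKB1 KO, 4.78 ± 0.49 (edgeR FDR = 3.6e-06) in clone A1 and 4.66 ± 0.50 (edgeR FDR = 2.2e-06) in clone A2, and the responses of the clones differed from that of LKB1 KO by 0.19 ± 0.71 (edgeR FDR = 1.0) and 0.077 ± 0.72 (edgeR FDR = 1.0).

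Unlike the metallothioneins, Steap4 was not lower in either clone than in LKB1 KO. Clone A1 was above LKB1 KO by a log2 difference of 1.19 ± 0.56 (edgeR FDR = 0.11) untreated, called with the block (edgeR FDR = 0.0074), and by 1.38 ± 0.41 (edgeR FDR = 0.011) under IL-1β, which passed and was lost without LKB1 KO stimulated replicate 1 (edgeR FDR = 0.060). Clone A2 differed from LKB1 KO by 0.77 ± 0.58 (edgeR FDR = 0.34) untreated and 0.85 ± 0.41 (edgeR FDR = 0.12) under IL-1β. The latter was called with the block (edgeR FDR = 0.0023) and without clone A2 stimulated replicate 1 (0.019). Clone A2 differed from clone A1 by −0.41 ± 0.52 (edgeR FDR = 0.60) untreated and −0.53 ± 0.40 (edgeR FDR = 0.36) under IL-1β, the latter called with the block (edgeR FDR = 0.0084).

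Slc11a2 (ENSMUSG00000023030, chr15:100387898-100425072, minus strand) encodes DMT1, the proton-coupled transporter of ferrous iron. It was at 61.6, 53.9 and 54.4 CPM in untreated WT, 94.8, 94.8 and 89.1 CPM in LKB1 KO, 96.6, 106 and 100 CPM in clone A1 and 95.5, 102 and 95.1 CPM in clone A2. IL-1β brought it to 154, 155 and 161 CPM in WT, 224, 270.3 and 254 CPM in LKB1 KO, 205, 217 and 222 CPM in clone A1 and 211, 251 and 258 CPM in clone A2. The 12 stimulated libraries lay above the 12 untreated ones, and both WT groups lay below the corresponding groups of the other genotypes.

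The rise with IL-1β was 1.47 ± 0.078 (edgeR FDR = 7.8e-11) in WT, 1.42 ± 0.078 (edgeR FDR = 8.1e-11) in LKB1 KO, 1.09 ± 0.077 (edgeR FDR = 1.2e-08) in clone A1 and 1.30 ± 0.078 (edgeR FDR = 5.8e-10) in clone A2. LKB1 KO exceeded WT by 0.71 ± 0.078 (edgeR FDR = 8.4e-08) untreated and 0.67 ± 0.077 (edgeR FDR = 1.7e-07) under IL-1β, and the 2 responses differed by −0.043 ± 0.11 (edgeR FDR = 1.0), with an interval (± 1.96 SE) from −0.26 to 0.17. Untreated, neither clone passed against LKB1 KO, at 0.12 ± 0.077 (edgeR FDR = 0.26) for clone A1 and 0.072 ± 0.077 (edgeR FDR = 0.53) for clone A2. Under IL-1β clone A1 was lower than LKB1 KO, at −0.22 ± 0.076 (edgeR FDR = 0.031), and clone A2 differed by −0.055 ± 0.076 (edgeR FDR = 0.64). The call in clone A1 was lost without its stimulated replicate 1 (edgeR FDR = 0.11) or 2 (0.066), without LKB1 KO stimulated replicate 2 (0.18) or 3 (0.072), with unstranded counts (0.095) and with only the 2 groups fitted (0.057). Clone A2 differed from clone A1 under IL-1β by 0.16 ± 0.076 (edgeR FDR = 0.12), which was called without clone A2 replicate 1 (edgeR FDR = 0.0093).

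**Figure D3:**
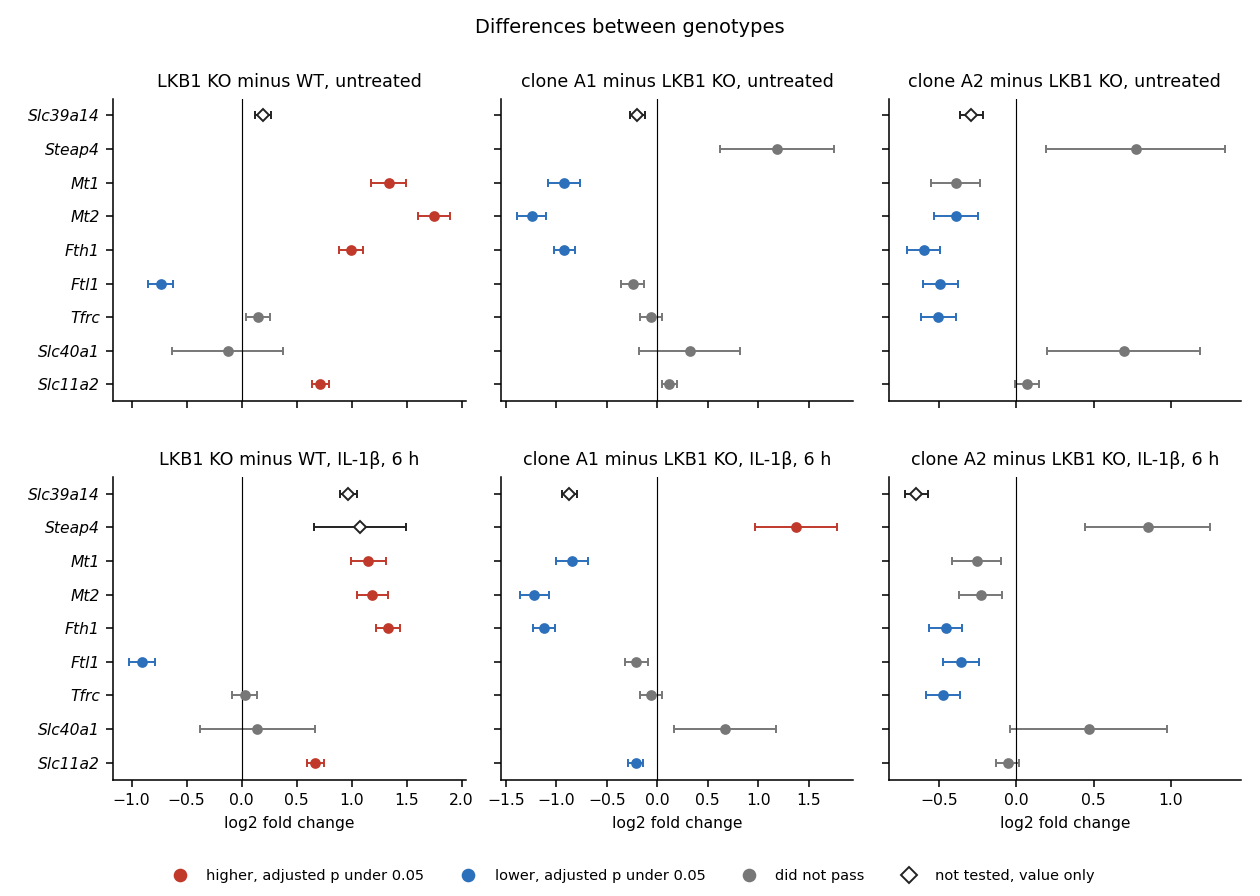
Log2 differences between genotypes (horizontal axis, 1 scale per column) for the 9 genes, in untreated cells in the upper row and under IL-1β in the lower row. Points are estimates and whiskers 1 SE, red points passed as higher, blue points passed as lower, grey points did not pass, and open diamonds were not tested. Mt1, Mt2 and Fth1 are on the higher side in LKB1 KO against WT and on the lower side in clone A1 against LKB1 KO, and Steap4 in untreated LKB1 KO against WT is not drawn.

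Fth1 (ENSMUSG00000024661, chr19:9980598-9985098, plus strand) encodes the ferritin heavy chain, which oxidizes iron for storage, and Ftl1 (ENSMUSG00000050708, chr7:45457944-45459884, minus strand) the light chain, which helps to lay down the mineral core. Fth1 was at 836, 813 and 905 CPM in untreated WT and 1563, 1821 and 1704 CPM in untreated LKB1 KO cells. Ftl1 was at 785, 827 and 883 CPM in untreated WT and 467, 485 and 546 CPM in untreated LKB1 KO cells. The heavy chain was therefore higher and the light chain lower in every LKB1 KO library than in every WT library.

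Against WT, untreated LKB1 KO cells differed by 0.99 ± 0.11 (edgeR FDR = 7.3e-08) for Fth1 and −0.74 ± 0.11 (edgeR FDR = 1.2e-05) for Ftl1, and under IL-1β by 1.33 ± 0.11 (edgeR FDR = 9.2e-10) and −0.90 ± 0.12 (edgeR FDR = 7.7e-07). Processed pseudogenes of both ferritin genes exist. The largest, Ftl1-ps1, held at most 461 counts in a library and, in another library, at most 1.44% of the Ftl1 count. Pairs that align to several places, 7.69% to 9.06% of all pairs, were not counted, and reads of near-identical copies may be among them.

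IL-1β brought Fth1 to 947, 925 and 1044 CPM in WT, 2008, 2758 and 2557 CPM in LKB1 KO, 1046, 1199 and 1121 CPM in clone A1 and 1529.7, 1866 and 1951 CPM in clone A2. The untreated levels were 845, 969 and 874 CPM in clone A1 and 1113, 1158 and 1097 CPM in clone A2. Fth1 rose by 0.53 ± 0.11 (edgeR FDR = 0.0038) in LKB1 KO and 0.67 ± 0.11 (edgeR FDR = 0.00034) in clone A2. Its values in WT, 0.19 ± 0.11 (edgeR FDR = 0.53), and in clone A1, 0.32 ± 0.11 (edgeR FDR = 0.16), did not pass, and the latter was called with the block (edgeR FDR = 0.0081). The responses of LKB1 KO and WT differed by 0.33 ± 0.15 (edgeR FDR = 0.83), with an unadjusted p of 0.038.

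Ftl1 did not follow. With IL-1β it was at 832, 809.6 and 913 CPM in WT, 409, 462 and 493 CPM in LKB1 KO, 354, 400.4 and 424 CPM in clone A1 and 293, 371 and 402 CPM in clone A2, and in each genotype this range overlapped the untreated one. The log2 changes were 0.033 ± 0.11 (edgeR FDR = 0.98) in WT, −0.14 ± 0.11 (edgeR FDR = 0.67) in LKB1 KO, −0.10 ± 0.11 (edgeR FDR = 0.85) in clone A1 and −0.0012 ± 0.11 (edgeR FDR = 1.0) in clone A2. In the order of the 8 groups the 2 WT groups came first, overlapping each other and no other group.

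Fth1 was lower in both clones than in LKB1 KO, and Ftl1 passed as lower in clone A2. The Fth1 difference was −0.92 ± 0.11 (edgeR FDR = 1.1e-06) in clone A1 and −0.60 ± 0.11 (edgeR FDR = 0.00020) in clone A2 untreated, and −1.12 ± 0.11 (edgeR FDR = 8.6e-08) and −0.45 ± 0.11 (edgeR FDR = 0.0023) under IL-1β. Untreated Ftl1 was at 374, 439 and 451 CPM in clone A1 and 306, 369 and 391 CPM in clone A2. Its difference from LKB1 KO was −0.49 ± 0.11 (edgeR FDR = 0.0023) in untreated and −0.36 ± 0.11 (edgeR FDR = 0.020) in stimulated clone A2. The stimulated call was lost without clone A2 replicate 1 (edgeR FDR = 0.12) and without LKB1 KO replicate 2 (0.057) or 3 (0.080). In clone A1 the Ftl1 differences were −0.24 ± 0.11 (edgeR FDR = 0.10) untreated and −0.21 ± 0.11 (edgeR FDR = 0.16) under IL-1β (with the block, edgeR FDR = 0.00092 and 0.0035).

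Between the clones, Fth1 was higher in clone A2 by 0.33 ± 0.11 (edgeR FDR = 0.023) untreated and 0.67 ± 0.11 (edgeR FDR = 6.0e-05) under IL-1β. The untreated call was lost without clone A1 replicate 1 (edgeR FDR = 0.093) or 3 (0.072). Ftl1 differed between the clones by −0.25 ± 0.11 (edgeR FDR = 0.11) untreated and −0.14 ± 0.11 (edgeR FDR = 0.38) under IL-1β, both called with the block (edgeR FDR = 0.00097 and 0.035). Clone A2 thus held more of the heavy chain message than clone A1.

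The ratio of Fth1 to Ftl1 within a library, each per kilobase, set these opposite moves side by side. It was 0.663 ± 0.0263 (SD, n = 3) in untreated and 0.740 ± 0.00153 in stimulated WT cells. In LKB1 KO it was 2.21 ± 0.209 untreated and 3.47 ± 0.358 under IL-1β, in clone A1 1.38 ± 0.110 and 1.86 ± 0.125, and in clone A2 2.07 ± 0.270 and 3.26 ± 0.122. Every library of the 3 LKB1-deficient genotypes had a ratio above 1 and every WT library a ratio below 1. These sides of 1 hold for the transcript lengths used, 1494 bases for Fth1 and 968 bases for Ftl1. A shorter Fth1 transcript would raise all the ratios by the same factor and leave the order of the libraries unchanged. In each genotype the stimulated ratios lay above the untreated ones, and with 3 libraries against 3 an exact permutation test cannot go below p = 0.10, so none was run on these ratios.

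**Figure D4:**
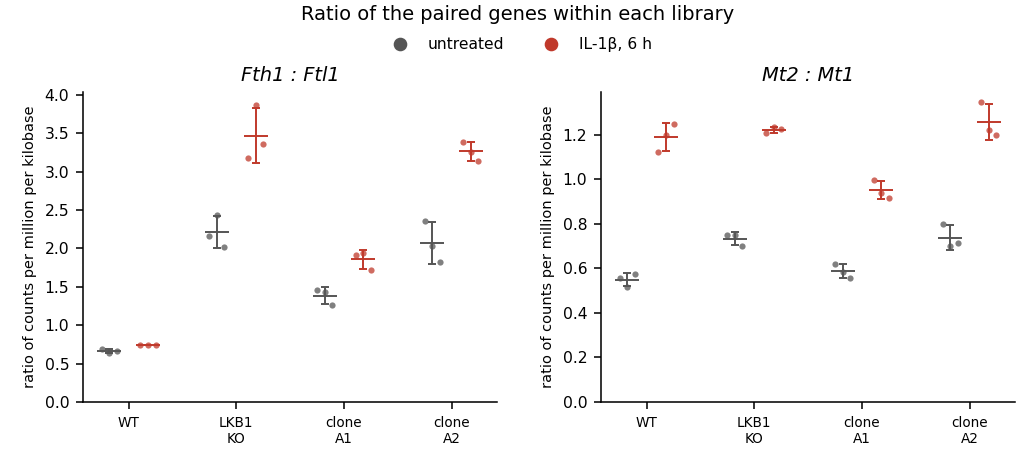
Ratio of Fth1 to Ftl1 (left) and of Mt2 to Mt1 (right) within each library, each gene in CPM per kilobase, on linear axes from 0. Points are libraries (grey untreated, red IL-1β) and the bar and whiskers the mean and SD of 3 libraries. With the transcript lengths used, the Fth1 to Ftl1 ratio is at most 0.741 in WT libraries and at least 1.26 in all others. The Mt2 to Mt1 ratio is higher under IL-1β in each genotype.

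Slc40a1 (ENSMUSG00000025993, chr1:45908068-45926523, minus strand) encodes ferroportin, the iron exporter, and had the lowest mean over all 24 libraries. Untreated libraries were at 1.34, 2.60 and 3.83 CPM in WT, 1.20, 2.20 and 3.69 CPM in LKB1 KO, 2.27, 2.47 and 4.09 CPM in clone A1 and 2.66, 3.13 and 5.70 CPM in clone A2. Under IL-1β they were at 0.765, 1.63 and 2.51 CPM in WT, 1.44, 1.58 and 2.40 CPM in LKB1 KO, 1.89, 2.60 and 4.14 CPM in clone A1 and 1.24, 1.98 and 4.31 CPM in clone A2. All neighbouring groups overlapped. In all 8 groups replicate 1 was the lowest and replicate 3 the highest.

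None of the Slc40a1 comparisons passed in the fit without the block. The change with IL-1β was −0.66 ± 0.51 (edgeR FDR = 0.73) in WT, −0.39 ± 0.51 (edgeR FDR = 0.81) in LKB1 KO, −0.035 ± 0.49 (edgeR FDR = 1.0) in clone A1 and −0.62 ± 0.49 (edgeR FDR = 0.59) in clone A2. With the block it was called in WT (edgeR FDR = 0.028) and clone A2 (0.0078), where all 3 same-numbered pairs were lower. LKB1 KO differed from WT by −0.13 ± 0.50 (edgeR FDR = 0.85) untreated, with an interval (± 1.96 SE) from −1.11 to 0.85. Against LKB1 KO, untreated clone A2 differed by 0.70 ± 0.49 (edgeR FDR = 0.31) and stimulated clone A1 by 0.67 ± 0.51 (edgeR FDR = 0.34). Both were called with the block (edgeR FDR = 0.0015 and 0.0061) and without a filter on low counts (0.024 and 0.028).

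The pattern over replicate numbers was not particular to Slc40a1. Mt1, Mt2 and Ftl1 were also highest in replicate 3 in all 8 groups, and Steap4 was lowest in replicate 1 in all 8, with a tie at 0 in untreated WT cells. What the replicate numbers stand for is not given in the labels, and its part in these levels was not tested.

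Whether the response to IL-1β differed between genotypes was tested directly. For LKB1 KO against WT, 0.245% of all genes and none of the 7 members open to it passed edgeR's quasi-likelihood test, 2 members (Mt2 and Fth1) had an unadjusted p under 0.05, and DESeq2 called 0 of them. For clone A1 against LKB1 KO, 0.0285% of all genes and 0 of 8 members passed, 1 member had an unadjusted p under 0.05, and DESeq2 called 0. That member was Slc11a2, with a difference of −0.33 ± 0.11 (edgeR FDR = 1.0) and an unadjusted p of 0.0058. For clone A2 against LKB1 KO, 0% of all genes passed, with 388 genes at an unadjusted p under 0.05 and 12 called by DESeq2, and of the 8 members none passed, had an unadjusted p under 0.05 or was called by DESeq2.

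The genes most like each member were sought over the 24 libraries by Pearson's correlation of log2 CPM, among 9624 genes with a mean log2 CPM above 3. The libraries share genotypes and treatments, so the coefficients are descriptions. Slc11a2 was most like Cxcl5 (r = 0.980), Nfkbiz (r = 0.977) and Cxcl1 (r = 0.967), the first and last of which encode neutrophil-attracting chemokines. Steap4 was most like Cxcl5 (r = 0.962), Slc11a2 (r = 0.956) and Sdc4 (r = 0.954), and Mt2 like the acute-phase gene Saa3 (r = 0.960) and Lcn2 (r = 0.952). Mt1 was most like Cebpb (r = 0.970), which encodes a transcription factor, and Mt1 was among the 3 genes most like Fth1 (r = 0.931). Slc39a14 was most like Twist2 (r = 0.881) and Tbx3 (r = 0.878), both genes of transcription factors, Ftl1 like Agfg1 (r = 0.986), Tfrc like Nol9 (r = 0.944), and Slc40a1 like Erlec1 (r = 0.927).

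The wider list was read against the same background. Between untreated LKB1 KO and WT cells 34 of its 56 tested genes passed, 15 higher and 19 lower, or 60.7% against 55.9% of all genes. With the block 36 passed, 64.3% of the list and 64.3% of all genes. Under IL-1β 14 were higher and 21 lower, or 62.5% against 57.4%, and with the block 40 passed, or 71.4% against 65.9%. In untreated LKB1 KO cells, 1 of the 11 tested zinc importer genes was higher and 6 were lower, with a median log2 difference of −0.23. Of the 7 tested zinc exporter genes 0 were higher and 3 lower. Over all genes 30.1% were higher and 25.8% lower. The shares called were 63.6% of the importer and 42.9% of the exporter genes, against 55.9% of all genes. Slc39a10, a plasma membrane zinc importer, fell from 111, 106 and 102 CPM in WT to 56.8, 56.6 and 56.5 CPM in LKB1 KO, a log2 difference of −0.91 ± 0.074 (edgeR FDR = 9.2e-10). The exporter gene Slc30a4 differed by −0.82 ± 0.074 (edgeR FDR = 4.6e-09) and the importer gene Slc39a11 by −0.90 ± 0.11 (edgeR FDR = 4.1e-07).

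All 4 tested genes of iron uptake and reduction in the wider list were higher in untreated LKB1 KO cells, against 30.1% of all genes. That list leaves out the members. Of the members named as iron uptake genes, Slc11a2 passed as higher in this comparison, Tfrc did not pass and Steap4 was not tested. Steap3, which encodes the reductase of the transferrin cycle, rose from 66.6, 72.2 and 80.6 CPM to 137, 185 and 197 CPM, a log2 difference of 1.24 ± 0.18 (edgeR FDR = 6.0e-06). Its relatives Steap1 and Steap2 differed by 0.80 ± 0.066 (edgeR FDR = 1.1e-09) and 0.75 ± 0.074 (edgeR FDR = 2.1e-08), the latter named after its value was seen. Lcn2, which encodes an iron-scavenging lipocalin, had 0 counts in the 3 untreated WT libraries and was at 0.679, 0.928 and 1.10 CPM in untreated LKB1 KO. Cp, the gene of the ferroxidase ceruloplasmin, rose from 1.74, 3.57 and 7.72 CPM to 18.04, 19.7 and 24.5 CPM, a log2 difference of 2.27 ± 0.49 (edgeR FDR = 0.00048). Under IL-1β the Cp difference between the same genotypes was 0.024 ± 0.44 (edgeR FDR = 0.97) and did not pass.

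Heme genes went both ways, with 4 of 11 higher and 4 lower, against 30.1% of all genes higher and 25.8% lower. Flvcr1, the gene of a heme exporter, was lower, at −1.62 ± 0.079 (edgeR FDR = 2.7e-13), as was Cpox, of heme synthesis, at −1.11 ± 0.057 (edgeR FDR = 5.6e-13), whereas the related transporter gene Flvcr2 was higher, at 1.02 ± 0.30 (edgeR FDR = 0.0063). Of the 12 genes of mitochondrial iron and iron-sulfur assembly 1 was higher and 4 were lower, or 41.7% against 55.9% of all genes (with the block, 2 higher and 4 lower). Under IL-1β the LKB1 KO against WT comparison called 35 of the 56 genes, 14 higher and 21 lower, or 62.5% against 57.4% of all genes.

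The wider list was chosen with earlier results of these data known, so its shares are description only, and those with IL-1β rest on few calls. With IL-1β these shares were above those of all genes. It called 6 of 56 in WT (5 higher, 1 lower), 5 in LKB1 KO (4 higher, 1 lower), 2 in clone A1 (both higher) and 7 in clone A2 (6 higher, 1 lower), which is 10.7%, 8.93%, 3.57% and 12.5% of the list against 2.26%, 4.74%, 1.99% and 5.68% of all genes. With the block these counts were 13 (10 higher, 3 lower), 10 (7 higher, 3 lower), 9 (6 higher, 3 lower) and 14 (8 higher, 6 lower), or 23.2%, 17.9%, 16.1% and 25% of the list against 9.30%, 14.8%, 9.61% and 17.9% of all genes. Lcn2 and Fbxl5 were higher in all 4 genotypes. Lcn2 reached 1.11, 5.63 and 5.25 CPM in WT, 33.7, 66.8 and 74.6 CPM in LKB1 KO, 9.42, 10.5 and 11.3 CPM in clone A1 and 33.6, 85.7 and 139.6 CPM in clone A2, and clone A1 differed from LKB1 KO by −2.49 ± 0.45 (edgeR FDR = 0.00026) and clone A2 from clone A1 by 3.05 ± 0.46 (edgeR FDR = 5.0e-05).

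Cp rose by 3.15 ± 0.50 (edgeR FDR = 0.00061) in WT cells, to 22.9, 36.2 and 55.2 CPM. Its changes of 0.90 ± 0.45 (edgeR FDR = 0.36) in LKB1 KO, 0.69 ± 0.45 (edgeR FDR = 0.67) in clone A1 and 0.83 ± 0.44 (edgeR FDR = 0.35) in clone A2 did not pass without the block (with it, edgeR FDR = 0.0015, 0.018 and 0.0020). Fbxl5, whose product senses iron and marks iron regulatory proteins for destruction, rose by 0.26 ± 0.056 (edgeR FDR = 0.013) in WT, 0.38 ± 0.056 (edgeR FDR = 0.00012) in LKB1 KO, 0.28 ± 0.056 (edgeR FDR = 0.0068) in clone A1 and 0.27 ± 0.056 (edgeR FDR = 0.0043) in clone A2. Slc25a37, the gene of the mitochondrial iron importer mitoferrin, rose by 0.53 ± 0.13 (edgeR FDR = 0.019) in LKB1 KO and 0.51 ± 0.13 (edgeR FDR = 0.023) in clone A2. In WT and clone A1 the Slc25a37 changes were 0.21 ± 0.13 (edgeR FDR = 0.61) and 0.27 ± 0.13 (edgeR FDR = 0.48) (with the block, edgeR FDR = 0.010 and 0.0017). For Mtf1, the zinc sensor gene, the differences with IL-1β were 0.21 ± 0.056 (edgeR FDR = 0.062) in WT, 0.18 ± 0.056 (edgeR FDR = 0.080) in LKB1 KO, 0.19 ± 0.056 (edgeR FDR = 0.10) in clone A1 and 0.21 ± 0.056 (edgeR FDR = 0.024) in clone A2. The test without the block called it in clone A2, and with the block it passed in each genotype (edgeR FDR = 0.014, 0.021, 0.022 and 0.0051).

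In the clones 22 of the 56 genes passed against LKB1 KO in untreated clone A1 (11 higher, 11 lower) and 21 in untreated clone A2 (11 higher, 10 lower), 39.3% and 37.5% of the list against 35.3% and 32.3% of all genes (with the block 32 and 30 genes, 57.1% and 53.6% against 48.1% and 45.9%). Hmox1, the gene of heme oxygenase, which frees iron from heme, was at 116, 129 and 130.4 CPM in LKB1 KO, 61.4, 69.2 and 67.7 CPM in clone A1 and 70.9, 90.9 and 92.2 CPM in clone A2. It was lower than in LKB1 KO, at −0.92 ± 0.10 (edgeR FDR = 8.0e-07) in clone A1 and −0.56 ± 0.10 (edgeR FDR = 0.00027) in clone A2, as was the heme transporter gene Slc48a1, at −0.92 ± 0.10 (edgeR FDR = 6.1e-07) and −0.45 ± 0.10 (edgeR FDR = 0.0016). Among genes with a mean log2 CPM above 0, the largest called change was that of the heme gene Flvcr2, which was higher than in LKB1 KO in both clones, at 1.47 ± 0.27 (edgeR FDR = 0.00020) in clone A1 and 1.86 ± 0.27 (edgeR FDR = 2.0e-05) in clone A2. Slc30a1, which encodes the zinc exporter of the plasma membrane and is a classic target of MTF1 like the metallothioneins, was lower in clone A2 than in LKB1 KO, at −0.84 ± 0.095 (edgeR FDR = 1.1e-06), and lower than in clone A1, at −0.68 ± 0.095 (edgeR FDR = 1.3e-05), the side opposite to that of Mt1 and Mt2 in the comparison of the 2 clones. Steap3 lay on opposite sides of LKB1 KO in the 2 untreated clones, at −0.54 ± 0.18 (edgeR FDR = 0.024) in clone A1 and 0.43 ± 0.18 (edgeR FDR = 0.078) in clone A2, where it did not pass without the block (with it, edgeR FDR = 0.0011). Under IL-1β these differences were −0.14 ± 0.18 (edgeR FDR = 0.59) and 0.70 ± 0.18 (edgeR FDR = 0.0046), and clone A2 exceeded clone A1 by 0.97 ± 0.18 (edgeR FDR = 0.00031) untreated and 0.85 ± 0.18 (edgeR FDR = 0.0011) under IL-1β. Under IL-1β 24 of the 56 genes passed in clone A1 (9 higher, 15 lower) and 22 in clone A2 (10 higher, 12 lower), or 42.9% and 39.3% of the list against 36.7% and 32.8% of all genes (with the block 35 and 34 genes, 62.5% and 60.7% against 49.1% and 46.6%).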

How the data were processed

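RNA-seq counts of 24 libraries were read from the tables the authors deposited. Per the study's methods, reads were trimmed with Trim Galore 0.6.0, aligned to the mouse genome (GRCm38, named mm10 in the labels) with STAR 2.7.8a, and the deposited counts are STAR's read pairs per GENCODE vM24 gene, not normalized. The second-strand column was used, since it held 95.5% to 96.0% of the stranded counts. Lines that name no gene (26.7% to 34.4% of pairs) were left out, and symbols were found for 55230 of 55471 identifiers. The library kit is described differently by the labels and the methods and was not settled.

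Genes passing filterByExpr (minimum count 10, minimum total 15) were scaled by TMM and fitted in 1 model of all 8 groups with edgeR 4.0.16 (quasi-likelihood F-test in its older form, limma 3.58.1, R 4.3.3), with Benjamini-Hochberg adjustment over 17522 genes. No replicate block was used, as in the study's methods. Same-numbered libraries deviated together from their group means in all 36 pairs of the 12 directly compared group pairs (r from 0.149 to 0.794 over 9624 genes, at least 0.0897 among all 84), so values from the blocked fit stand beside results whose call or count they change. The alternatives were unstranded counts, DESeq2 1.42.0, its size factors, upper quartile scaling, edgeR's newer quasi-likelihood form, other filters, models of the compared groups alone, and fits without each library in turn.

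The 9 genes and the wider lists were chosen with earlier results of these data known. From the wider list up to 5 called genes per direction and comparison were named, by fold change, among those with a mean log2 CPM above 0, and for each member up to 3 genes of highest Pearson correlation. Levels per kilobase used the length of the main transcript, taken as the longest one marked principal (1494 bases for Fth1 and 968 bases for Ftl1). The 95% counting intervals are exact, cover counting error only, and 3 counts in a library was taken as the limit of detection. Sequences came from RefSeq (GRCm38.p6 promoters) and GENCODE M21 transcripts. Promoter windows of Slc39a14, Slc40a1 and Slc11a2 and protein sequences were not used here.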

Additional observations from a re-analysis of the deposited data

Results flagged for a closer look

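The change of Slc39a14 with IL-1β had opposite signs in the same-numbered pairs of libraries of WT cells and of 2 other genotypes. The fitted log2 change was 0.68 in LKB1 KO cells, where the 3 pairs changed by 0.50, 0.75 and 0.78, against −0.1 in WT cells, where they changed by −0.13, −0.063 and −0.088. It was 0.32 in clone A2, where the pairs changed by 0.12, 0.30 and 0.53, again against −0.1 in WT. Neither difference was tested. Slc39a14 had been listed for its unequal IL-1β responses in LKB1 KO and clone A1, so the value in LKB1 KO is description only. The WT change did not pass its own test, and the WT groups overlapped. In no group are there more than 3 libraries, so no library could be set apart as an outlier of its group.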

How the results depend on the processing

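Over 2172 recomputed member values, 2057 kept their direction and side of the threshold, 29 were no longer called, 64 were newly called, 22 values without a test moved by more than their spread, and 0 reversed. Leaving out 1 library gave 21 of the lost and 6 of the new calls. The replicate block gave 20 of the new calls and lost none, and beyond those printed beside the results it changed no other call of a member. Of the other new calls 18 came without a filter, 6 with upper quartile scaling, 6 with only the groups compared, 5 with 10 counts in every library and 3 with DESeq2. The number of members called with IL-1β in WT cells was 2 and became 4 without a filter, 5 with the block and 4 with only the groups compared. In clone A1 it was 3 and became 5 with upper quartile scaling, 5 without a filter and 5 with the block. For the response of LKB1 KO against WT it was 0 and became 1 without a filter and 1 with the block, in both the gene Mt2. Against LKB1 KO it was 3 in untreated clone A1, and 5 without a filter, with the block or with only the groups compared. It was 4 in untreated clone A2 and 7 without a filter, and 3 in stimulated clone A2 and 6 without a filter or with the block. The causes were not tested. Leaving out 1 library kept the count of members at 5 for LKB1 KO against WT in both conditions, at 2, 4 and 3 with IL-1β in WT, LKB1 KO and clone A1, at 0 for the 3 response differences and at 3 for untreated clone A1, and gave 5 to 6 with IL-1β in clone A2, 4 to 5 for stimulated clone A1, 3 to 5 and 2 to 5 for untreated and stimulated clone A2 against LKB1 KO, and 2 to 4 and 3 to 5 between the clones. The lowest count for stimulated clone A2 was without LKB1 KO replicate 2 or 3 and the highest without clone A2 replicate 3, and the lowest between untreated clones was without clone A1 replicate 1 or clone A2 replicate 3. The calls over all genes for the response of LKB1 KO against WT fell from 43 to 23 without untreated LKB1 KO replicate 2 or 3, to 25 without its stimulated replicate 3 and to 28 without stimulated WT replicate 2. Those for the response of clone A1 against LKB1 KO fell from 5 to between 0 and 4 when any 1 library was left out. Over all genes the block raised the calls with IL-1β from 396 to 1629 in WT, 831 to 2601 in LKB1 KO, 348 to 1684 in clone A1 and 995 to 3133 in clone A2, and those for the responses from 43 to 311, 5 to 36 and 0 to 18. Without a filter these 7 counts were 954, 1428, 908, 1643, 347, 141 and 68, and DESeq2 gave 624 in WT, 573 in clone A1 and 121, 12 and 12 for the responses. With only the groups compared, 246 genes were called with IL-1β in clone A2. Upper quartile scaling moved the median of all genes for LKB1 KO against WT under IL-1β from 0.03 to 0.14 and gave 76, 3 and 1 calls for the responses. The filter of 10 counts in every library removed Steap4 and gave 70 calls for the first response, as did fitting only the groups compared. Steap4 in untreated WT cells and Slc40a1 throughout rest on few counts, which limits both.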
